A study of Homo sapiens with 6 samples.

Results

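Complex I, the NADH:ubiquinone oxidoreductase of the inner mitochondrial membrane, was examined at the level of its transcripts in AGS cells, a line derived from a human gastric adenocarcinoma. The genes described are all protein-coding genes whose symbol begins with NDUF or MT-ND, which gave 55 of the 58174 genes in the deposited expression table. They comprised 37 nuclear genes of structural subunits, 8 NDUFAF assembly factors, 7 subunits encoded by mitochondrial DNA and 3 nuclear genes that carry an NDUF name without being structural subunits. A further 67 genes with symbols of the same start are not protein-coding and were left out. All 55 had a mean of at least 0.5 TPM, a length-corrected share of all transcripts, in at least 1 group, and 53 reached 10 TPM.

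RNA was sequenced from 3 libraries of cells that received siRNA against FTO (si-FTO), an RNA demethylase that acts on m6A, and 3 libraries of cells that received control siRNA (si-NC). The genotype labels read FTO-/- for the si-FTO cells and wild type for the controls, whereas the titles and the study's methods describe siRNA depletion, and the group means cannot tell these apart. Levels of different genes can be compared in TPM, which keeps no read depth. The table holds 1 mean per group, which is the authors' mean. No spread between libraries could be computed, no difference below has a replicate check or a p-value, and the depth is unknown. Differences are the log2 ratio of si-FTO to si-NC after 1 TPM was added to each mean, which understates the change of low genes. A gene is called higher or lower when this ratio reaches 1.5-fold, a log2 value of 0.585.

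FTO itself, on chromosome 16 from 53735604 to 54192424 in the hg19 build, was at 33.1 TPM in the controls against 7.27 TPM after depletion, which is -2.05 on the log2 scale. The difference has the direction of the labels. The markers of the cell line were less clear. Of 10 epithelial genes, EPCAM was at 1.22 and 0.113 TPM in si-NC and si-FTO, KRT19 at 0 and 0.130, ESRP1 at 0.0830 and 0, and GRHL2 at 0.00370 and 0. CDH1 was at 3.67 and 0.685 TPM. These markers of gastric epithelium were thus low or listed at 0 in both groups. Of the 7 epithelial genes compared, 5 were higher and 2 lower in si-FTO (18.8% and 31.2% of all genes compared). Their summed level went from 69.3 to 5102 TPM, with KRT8, the most abundant of them in si-FTO, at 10.8 and 3139 TPM. The other higher genes were KRT18 (52.1 and 1851 TPM, the most abundant in si-NC), ELF3 (0.115 and 93.3 TPM), CLDN7 (1.17 and 14.8 TPM) and CLDN4 (0.226 and 2.70 TPM). All 5 neural genes compared were lower (31.2% of all genes compared), from a sum of 433 to 5.98 TPM, led by UCHL1 at 303 and 0.0204 TPM. NEFL and NEFM had 62.7 and 49.9 TPM in the controls and were listed at 0 after depletion, INA had 7.72 and 0.224 TPM, TUBB3 had 10.003 and 5.73 TPM, and STMN2 was listed at 0 in both groups. Of 6 mesenchymal genes compared, 2 were higher and 3 lower (18.8% and 31.2% of all genes compared). Their sum was 554 and 813 TPM, with VIM the most abundant at 439.9 and 752 TPM. COL1A1 was at 10.3 and 36.4 TPM, CDH2 at 53.7 and 1.245 TPM, FN1 at 27.7 and 8.74 TPM and ZEB2 at 14.4 and 5.96 TPM. The endothelial gene CDH5 was at 0.00827 and 40.9 TPM. Immune genes summed to 0.644 and 0.249 TPM, with PTPRC listed at 0 in both groups. These differences leave it uncertain whether both groups hold the same cell line, and a difference between the cells sequenced and an effect of the siRNA cannot be told apart in any ratio below. In bulk RNA, fewer cells of a kind and less RNA per cell cannot be told apart, and the part of these marker differences in the complex I values below was not tested.

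Complex I is the entry point of electrons from NADH into the respiratory chain. It is L-shaped, with a matrix arm that oxidises NADH and passes electrons through flavin and iron-sulfur clusters to ubiquinone, and a membrane arm that pumps protons. A small set of core subunits carries out catalysis and is conserved from bacteria, whereas the accessory subunits surround the core and are needed for assembly and stability. The proton-pumping core of the membrane arm is encoded by mitochondrial DNA, so that the enzyme is built from the products of both genomes. Assembly factors chaperone the intermediates and are absent from the finished enzyme.

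As a whole, the nuclear structural subunits showed no shift in one direction. Their median log2 ratio was -0.07 with values from -1.09 to 1.05, and it was 0.13 after median-ratio scaling, so its direction depended on the scaling. The median over all 20493 genes compared was -0.20, and it moved up by 0.17 under median-ratio scaling and by 0.14 under quantile normalization. Relative to that median the nuclear subunits were at 0.13 as deposited, at 0.16 after median-ratio scaling and at -0.04 after quantile normalization. Their summed level was 6919.6 TPM in si-NC against 6805 in si-FTO, which is 0.692% and 0.681% of all transcripts. The sum therefore differed by -0.02 on the log2 scale as deposited, and by 0.19 in the opposite direction after median-ratio scaling.

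Single subunits differed more than the sum. Of the 37 nuclear subunits, 4 were higher by at least 1.5-fold (18.8% of all genes compared) and 5 were lower (31.2% of all genes compared), and these became 8 higher and 3 lower after median-ratio scaling, under which 23.4% of all genes compared were higher and 25.1% lower. By at least 2-fold, 1 subunit was higher (11.4% of all genes compared) and 1 was lower (17% of all genes compared), with 3 higher and 0 lower after median-ratio scaling and 0 higher and 2 lower after quantile normalization. All 37 also reached 10 TPM, where 20% of 10785 genes were higher and 28.3% lower by 1.5-fold, and 13.3% were higher and 15% lower by 2-fold. The count of subunits past 1.5-fold in either direction was 9, or 24.3%, below the 50.03% of all genes compared and the 48.3% of genes at 10 TPM or more. Within 1.5-fold lay 75.7% of the nuclear subunits, and 70.3% after median-ratio scaling. No test was run on these shares, since the genes are not replicates.

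**Figure D1:**
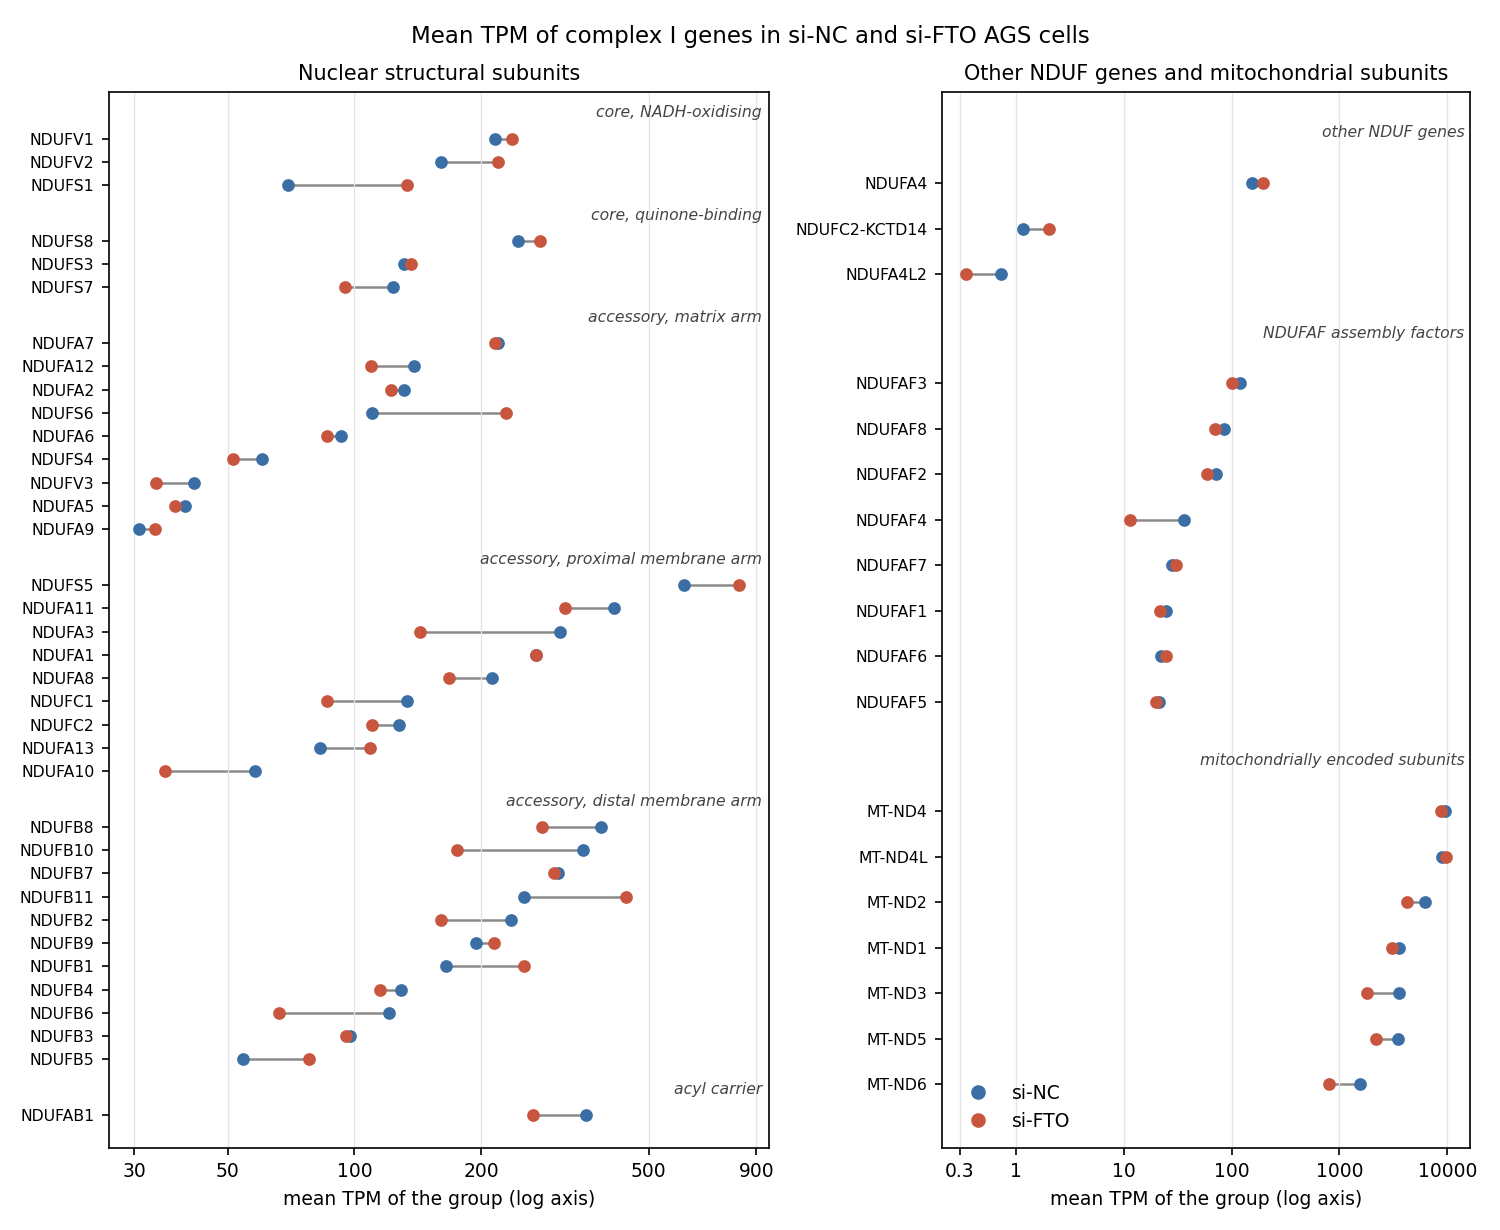
Mean TPM of complex I genes in si-NC (blue) and si-FTO (red) on log axes, grouped by role and ordered by the si-NC level, with the nuclear structural subunits on the left and the other genes on the right. Each point is 1 group mean without an error, the nuclear subunits span 30.8 to 607 TPM in si-NC and 33.6 to 817 TPM in si-FTO, and the long lines mark NDUFS6, NDUFA3 and NDUFAF4.

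The levels of the nuclear subunits spread over a 19.7-fold range in si-NC and a 24.3-fold range in si-FTO, although the finished enzyme holds most of them in a single copy. The most abundant nuclear transcript of complex I in both groups was NDUFS5, a small subunit on the intermembrane space side, at 607 TPM in si-NC against 817 in si-FTO. The least abundant was NDUFA9, which lies near the ubiquinone site, at 30.8 and 33.6 TPM. The order of levels was largely shared between the groups, with Pearson's r of 0.89 and Spearman's rho of 0.87 on log2(TPM + 1) over 37 genes. These points share their libraries and their gene lengths, and genes are not independent replicates. The log2 ratio itself had little relation to the level, with r of 0.09 and rho of 0.09 over the same 37 genes.

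The core subunits that oxidise NADH were all above 0 on the log2 scale under each scaling tried. NDUFS1, the largest iron-sulfur subunit of the matrix arm, was at 69.6 TPM in si-NC against 133 in si-FTO (log2 0.93). NDUFV2, which carries a further iron-sulfur cluster, was at 160.2 and 219 TPM (log2 0.45), within 1.5-fold as deposited and past it at 0.66 after median-ratio scaling. NDUFV1, which binds NADH and the flavin, was at 216 and 236 TPM (log2 0.13). These 3 genes were unequal in si-NC, over a 3.11-fold range, and closer in si-FTO, over a 1.77-fold range. The narrowing came from NDUFS1, the lowest of them in si-NC.

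Core subunits on the path to ubiquinone differed little. NDUFS7, which lies at the ubiquinone site, was at 124 and 94.8 TPM (log2 -0.38). NDUFS8, which holds iron-sulfur clusters next to that site, was at 244 and 275 TPM (log2 0.17), and NDUFS3 at 131 and 136 TPM (log2 0.05). Each of these lay within 1.5-fold. Taking both sets of core subunits, the median log2 ratio of the 7 genes was 0.17, and 0.38 and 0.11 after median-ratio scaling and quantile normalization, whereas that of the 30 accessory subunits was -0.14 and 0.07 after median-ratio scaling. Of the core genes 6 of 7 were above 0, and of the accessory genes 8 of 30, which became 17 of 30 after median-ratio scaling. After quantile normalization 5 of 7 core and 8 of 30 accessory genes were above 0, and the accessory median was -0.19. As deposited, about 60% of all genes compared were below 0.

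Among the 9 accessory subunits of the matrix arm, NDUFS6 stood apart. This zinc-binding subunit, which joins late in assembly, was at 110.0 TPM in si-NC against 229 in si-FTO (log2 1.05), the highest log2 ratio of all 55 genes. The other 8 lay between -0.34 and 0.12, within 1.5-fold, while 18.8% of all genes compared were higher and 31.2% lower. NDUFA7 was the most abundant of the 9 in si-NC at 219.6 TPM, against 216 TPM in si-FTO. The median of the 9 was -0.10, and 0.11 after median-ratio scaling.

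Of the 9 accessory subunits of the proximal membrane arm, 3 were lower (31.2% of all genes compared) and 0 were higher (18.8%). NDUFA3, a small membrane subunit, was at 307 TPM in si-NC against 143 in si-FTO (log2 -1.09), the lowest log2 ratio among the nuclear subunits. NDUFA10, which resembles a nucleoside kinase, was at 58.0 and 35.6 TPM (log2 -0.69), and NDUFC1 at 133 and 86.2 TPM (log2 -0.62). Both of the latter came within 1.5-fold after median-ratio scaling, at -0.48 and -0.41. NDUFS5 and NDUFA13, a subunit also known as GRIM-19, were on the other side of 0 at 0.43 and 0.39, and passed 1.5-fold after median-ratio scaling. The median of the 9 genes was -0.33, and -0.12 and -0.42 after median-ratio scaling and quantile normalization.

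Accessory subunits of the distal membrane arm differed in both directions. NDUFB11, encoded on the X chromosome, was at 253 TPM in si-NC against 442 in si-FTO (log2 0.80). NDUFB1 was at 165 and 252 TPM, a log2 ratio of 0.61 that came within 1.5-fold at 0.53 after quantile normalization. In the other direction, NDUFB10 was at 348 and 175 TPM (log2 -0.99) and NDUFB6 at 120.5 and 66.2 TPM (log2 -0.85). Of the 11 genes, 2 were thus higher and 2 lower (18.8% and 31.2% of all genes compared), around a median of -0.03 that became 0.18 after median-ratio scaling, with 3 higher and 2 lower, and 1 higher and 3 lower after quantile normalization. NDUFB8 was the most abundant in si-NC, at 385 against 279 TPM in si-FTO, and NDUFB5 the least, at 54.2 against 77.9 TPM. Just inside the 1.5-fold threshold were NDUFB5 at 0.51 and NDUFB2 at -0.54, of which NDUFB5 passed it after median-ratio scaling and NDUFB2, at -0.63, after quantile normalization. The acyl carrier NDUFAB1, which is found in both arms and also serves fatty acid synthesis, was at 354 and 265 TPM (log2 -0.42).

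By arm, the 16 subunits of the matrix arm had 2 higher and 0 lower genes, and the 20 nuclear subunits of the membrane arm 2 higher and 5 lower, against 18.8% higher and 31.2% lower among all genes compared. The membrane arm counts depended on the scaling, with 5 higher and 3 lower after median-ratio scaling and 1 higher and 6 lower after quantile normalization, under which 23.2% of all genes compared were higher and 25.9% lower. The 5 of 20 higher genes after median-ratio scaling were thus close to the 23.4% of all genes under it. The matrix arm median was 0.01, with 0.22 after median-ratio scaling and -0.03 after quantile normalization. The membrane arm median was -0.19, with 0.02 and -0.24 after the same steps. Summed levels went from 2068 to 2308 TPM for the matrix arm and from 4497 to 4233 TPM for the membrane arm. The difference between the arms was not tested.

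**Figure D2:**
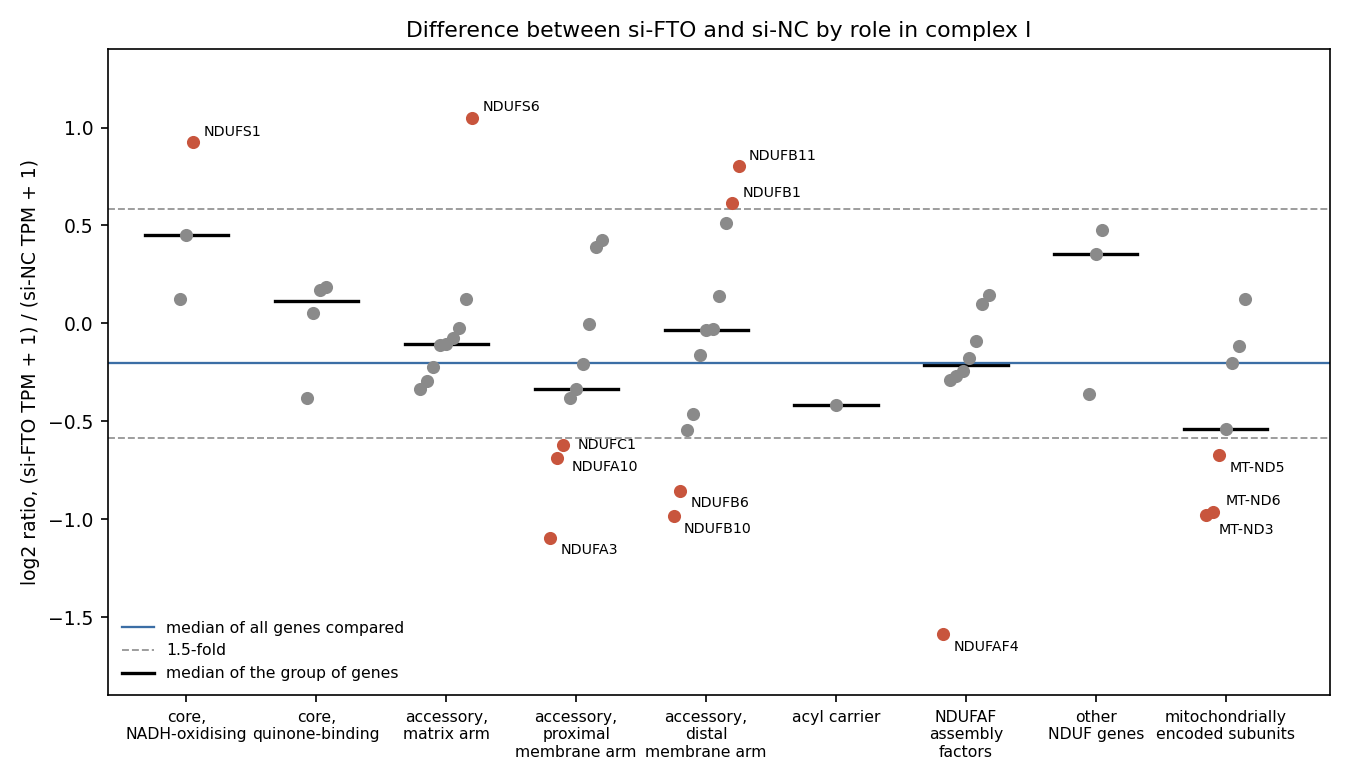
The log2 ratio of si-FTO to si-NC for each of the 55 genes by role, with red points past 1.5-fold (dashed lines), black bars for the median of each role and a blue line for the median of all genes compared at -0.20. Points on both sides of 0 occur in every role with more than 3 genes, and after median-ratio scaling the medians of the matrix arm and distal membrane arm accessory genes change sign, to 0.11 and 0.18.

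Of the 8 NDUFAF assembly factors, 0 were higher and 1 was lower (18.8% and 31.2% of all genes compared). The lower one, NDUFAF4, was at 36.1 TPM in si-NC against 11.3 in si-FTO (log2 -1.59), the lowest log2 ratio of all 55 genes. NDUFAF3, which binds NDUFAF4 in the early ubiquinone module, was at 119.9 and 101 TPM (log2 -0.24) and was the most abundant factor in both groups. The other 6 also lay within 1.5-fold. NDUFAF1, a part of the complex that builds the membrane arm, was at 24.6 and 21.6 TPM, and NDUFAF2, a relative of NDUFA12 found on late intermediates, at 71.4 and 59.0 TPM. NDUFAF5 and NDUFAF7, enzymes that modify arginines of complex I subunits, were at 21.1 and 19.8 TPM and at 28.3 and 30.3 TPM. The median over the 8 was -0.21, close to the -0.20 of all genes compared, and 0.00 after median-ratio scaling, which also put 4 of the 8 above 0 in place of 2. Their sum went from 409 to 337 TPM.

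The list of 14 further assembly factors with other names held 1 higher and 3 lower genes (18.8% and 31.2% of all genes compared), and 1 higher and 2 lower after median-ratio scaling. The median was -0.24, and -0.03 after that scaling. ACAD9, which works with NDUFAF1, was at 60.95 TPM in si-NC against 101 in si-FTO (log2 0.73). NUBPL, which delivers iron-sulfur clusters, was at 16.5 and 8.30 TPM (log2 -0.91). AIFM1, with the highest si-NC level of these 14, was at 184 and 98.3 TPM (log2 -0.90), while CHCHD4, its partner in protein import, was at 46.9 and 44.3 TPM. ECSIT was at 47.5 and 29.9 TPM (log2 -0.65), although it acts in the same complex as ACAD9.

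The 3 remaining NDUF genes were not counted as subunits. NDUFA4, now assigned to complex IV, was at 154 and 197 TPM (log2 0.35). NDUFA4L2, a gene induced by hypoxia in other settings, was low in both groups at 0.726 and 0.345 TPM, and with a pseudocount of 0.1 its log2 ratio went from -0.36 to -0.89. The readthrough gene NDUFC2-KCTD14 was at 1.16 and 2.01 TPM (log2 0.48, and 0.60 after median-ratio scaling), and its reads cannot be told apart from those of NDUFC2 where the genes overlap. Adding these 3 genes to the 37 moved the median to -0.05.

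The mitochondrially encoded subunits were each above every nuclear subunit in TPM, except MT-ND6 in si-FTO, at 799 TPM below NDUFS5 at 817 TPM. Their sum was 36684 TPM in si-NC against 30539.5 in si-FTO, or 3.67% and 3.05% of all transcripts. Set against the nuclear subunits, the summed TPM was 5.30 times as high in si-NC and 4.49 times in si-FTO, a ratio that does not depend on scaling by a constant. The log2 ratio of the sum was -0.26, and -0.05 after median-ratio scaling. The median over the 7 genes was -0.54, and -0.33 and -0.41 after median-ratio scaling and quantile normalization, so it was below 0 in each.

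Within this group, 3 of 7 genes were lower by 1.5-fold (31.2% of all genes compared) and 0 were higher (18.8%), and 2 were lower after median-ratio scaling. MT-ND3 was at 3540.2 TPM in si-NC against 1793 in si-FTO (log2 -0.98). MT-ND6, the only protein gene transcribed from the light strand, was at 1557 and 799 TPM (log2 -0.96). MT-ND5 was at 3497 and 2193 TPM, a log2 ratio of -0.67 that came within 1.5-fold at -0.46 after median-ratio scaling. The most abundant were MT-ND4 at 9474 and 8732 TPM (log2 -0.12) and MT-ND4L at 8907 and 9698 TPM (log2 0.12). These neighbours overlap and share a messenger RNA, and they had nearly the same level in each group. MT-ND1 was at 3557 and 3088 TPM (log2 -0.20), and MT-ND2 at 6152 and 4236 TPM (log2 -0.54).

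Lower values were not limited to complex I or to the light strand. The 6 other proteins of mitochondrial DNA had a median log2 ratio of -0.39, and -0.17 after median-ratio scaling. MT-CYB at -0.60 was the single gene lower by 1.5-fold as deposited (31.2% of all genes compared), with 0 genes lower after that scaling. MT-CO3 at -0.04 was the nearest to 0. Because the heavy-strand genes are transcribed as 1 long precursor, they were also read as shares of the 13 proteins. MT-ND3 made up 2.89% in si-NC and 1.73% in si-FTO, whereas MT-ND4L made up 7.26% and 9.35%. Both lie next to each other in the genome apart from a single tRNA gene. The ribosomal RNA MT-RNR1 was at 1676 and 1060 TPM (log2 -0.66) and MT-RNR2 at 4209 and 5678 TPM (log2 0.43). The 22 mitochondrial tRNAs had a median of -0.29, with 15 below 0, as were about 60% of all genes compared. Their median was not computed under the other scalings. The labels give total RNA and a stranded kit, and whether the counting used strand is not given in the sources used here, so reads of MT-ND6 and of the opposite strand cannot be told apart.

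**Figure D3:**
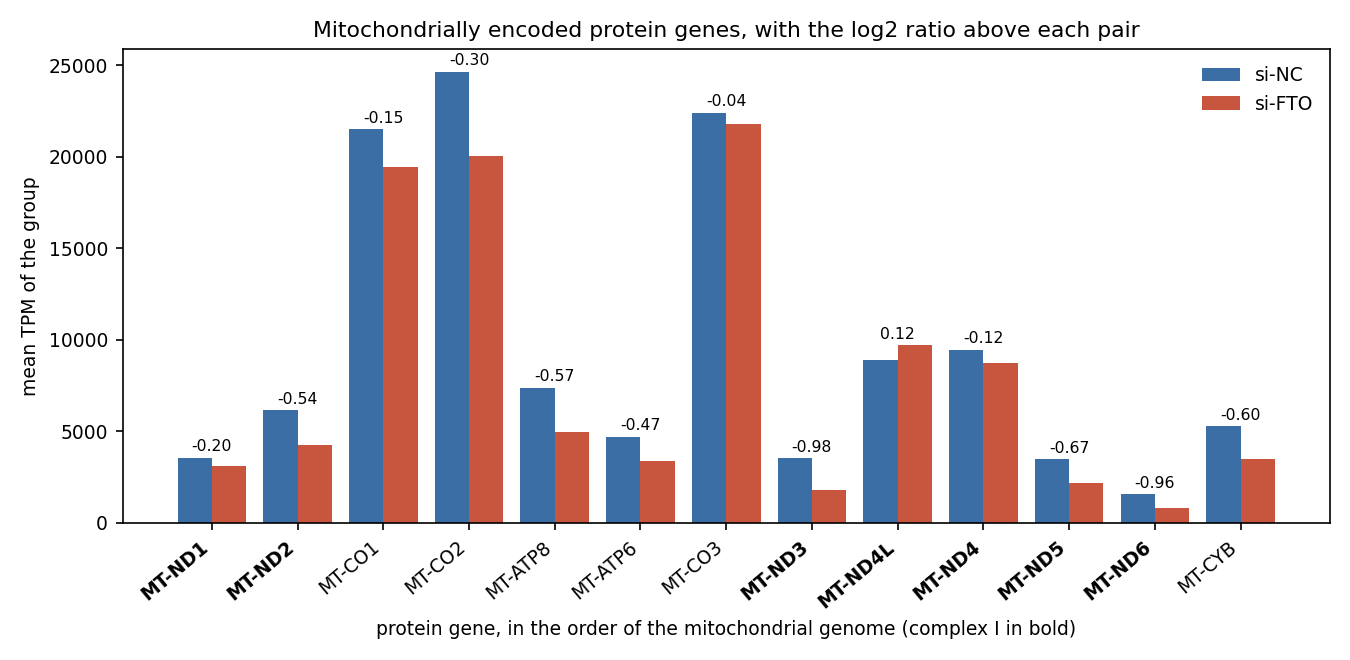
Mean TPM of the 13 protein genes of mitochondrial DNA in si-NC (blue) and si-FTO (red), in genome order, with complex I genes in bold and the log2 ratio above each pair. The bars are group means without errors, MT-ND4L is the only gene with a higher bar in si-FTO as deposited, and after median-ratio scaling 5 of the 13 are above 0.

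Nuclear copies of mitochondrial DNA limit 1 of these values. The table lists 217 nuclear copies of MT-ND genes, 6 of them at 0.5 TPM or more. MTND2P28 on chromosome 1 was at 1132 TPM in si-NC against 939 in si-FTO, so that copies made up 15.5% and 18.2% of the summed TPM of MT-ND2 and its copies. Near-identical reads can be split between them, and the MT-ND2 value is uncertain for that reason. For the other 6 genes the copies made up at most 1.49% in either group. For the nuclear members, 63 pseudogene copies are listed and 5 reached 0.5 TPM. The largest share among members past 1.5-fold was that of NDUFB1 in si-FTO, where NDUFB1P1 was at 6.26 TPM and the copies made up 2.42%.

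Set against the rest of the respiratory chain, complex I had the same centre and a wider spread. The 40 nuclear genes of complexes II to V had a median of -0.08, and 0.13 after median-ratio scaling, nearly the same as for complex I in both. Of these 40 genes 3 were higher and 1 was lower (18.8% and 31.2% of all genes compared), which became 4 higher and 0 lower after median-ratio scaling, and 90% lay within 1.5-fold, compared with 75.7% in complex I. The SD of the log2 ratios over genes was 0.50 in complex I and 0.35 in the others, a spread between genes and not between libraries. Taken singly, complex II had a wider SD of 0.59 over 4 genes, whereas complexes III, IV and V had 0.26, 0.28 and 0.38. The difference in spread was not tested. The higher genes were SDHA, the flavoprotein of complex II, at 165 and 293 TPM (log2 0.82), COX7B at 143 and 247 TPM (log2 0.78) and ATP5F1E at 82.9 and 141 TPM (log2 0.76). The lower gene as deposited was ATP5ME at 444 and 281 TPM (log2 -0.66). Complex III had 0 of 9 genes past 1.5-fold. The most abundant genes of complexes II to V in si-NC were SDHB (262 and 206 TPM), UQCRH (793 and 826 TPM), COX6A1 (1086 and 933 TPM) and ATP5F1B (1067 and 1119.7 TPM), all within 1.5-fold.

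**Figure D4:**
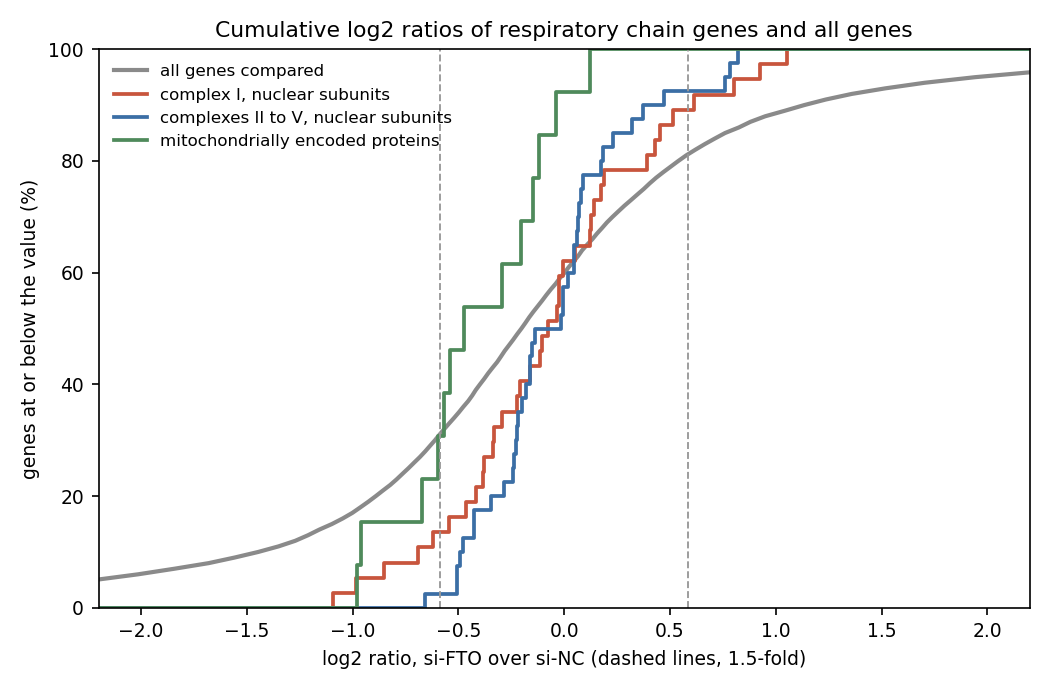
Percent of genes at or below each log2 ratio for the 37 nuclear subunits of complex I (red), the 40 nuclear subunits of complexes II to V (blue), the 13 mitochondrially encoded proteins (green) and all 20493 genes compared (grey), with dashed lines at 1.5-fold. The red and blue curves cross 50% at -0.07 and -0.08 and both move above 0 after median-ratio scaling, to 0.13, whereas the green curve crosses it at -0.47, and at -0.26 after that scaling.

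Each nuclear member was also set beside its neighbours on the chromosome. For each of the 48 nuclear members, the median log2 ratio of the 50 nearest genes with at least 10 TPM was taken, members left out. These medians ran from -0.85 to 0.91. Pearson's r between them was 0.57 and Spearman's rho 0.44 across the 48 genes, and r was 0.42 without NDUFAF4 and NDUFS6. The points share libraries, and members close together share neighbours, so they are not independent.

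Taking the 50 nearest genes, the members with the lowest and the highest log2 ratio also had the lowest and the highest neighbour median. With the 20 nearest genes the lowest median was that of NDUFB2 (-1.12), followed by NDUFAF4 (-1.07). The highest was then that of NDUFS3 (0.83), followed by NDUFS6 (0.79). The values below are for the 50 nearest genes. As deposited, about 60% of all genes compared were below 0. NDUFAF4, on chromosome 6 from 97337191 to 97345767 in hg19, had the lowest neighbour median, -0.85, with 43 of 50 neighbours below 0 between positions 83777385 and 110575478, and at -1.59 it was itself 0.73 below that median. NDUFS6, on chromosome 5 from 1801521 to 1816162, had the highest, 0.91, with 44 of 50 neighbours above 0 between positions 196983 and 32444846. SDHA, also higher, lies in the same stretch. NDUFA3, on chromosome 19 from 54606036 to 54612564, had neighbours at -0.72. Of the 48 nuclear members, 39 lay within 1.5-fold of their neighbour median. The rest, NDUFAF4 among them, differed from their neighbours by more than 1.5-fold. Measured from 0 instead, 28 of the 37 nuclear subunits, 7 of the 8 NDUFAF factors and the 3 other NDUF genes lay within 1.5-fold. The same sign as the neighbour median was seen in 35 of the 48, while the neighbour medians themselves had a median of -0.17. Neither count was made for other genes, so neither is read as following the neighbours. NDUFS1, on chromosome 2 from 206979541 to 207024233, was at 0.93 with neighbours at -0.30, and NDUFB6, on chromosome 9 from 32552997 to 32573160, at -0.85 with neighbours at -0.12. NDUFA6, on chromosome 22, lay near 0 at -0.11 while 44 of its 50 neighbours were below 0, with a median of -0.78. Whether the stretches differ in copy number, in regulation or in the cells sequenced was not tested.

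**Figure D5:**
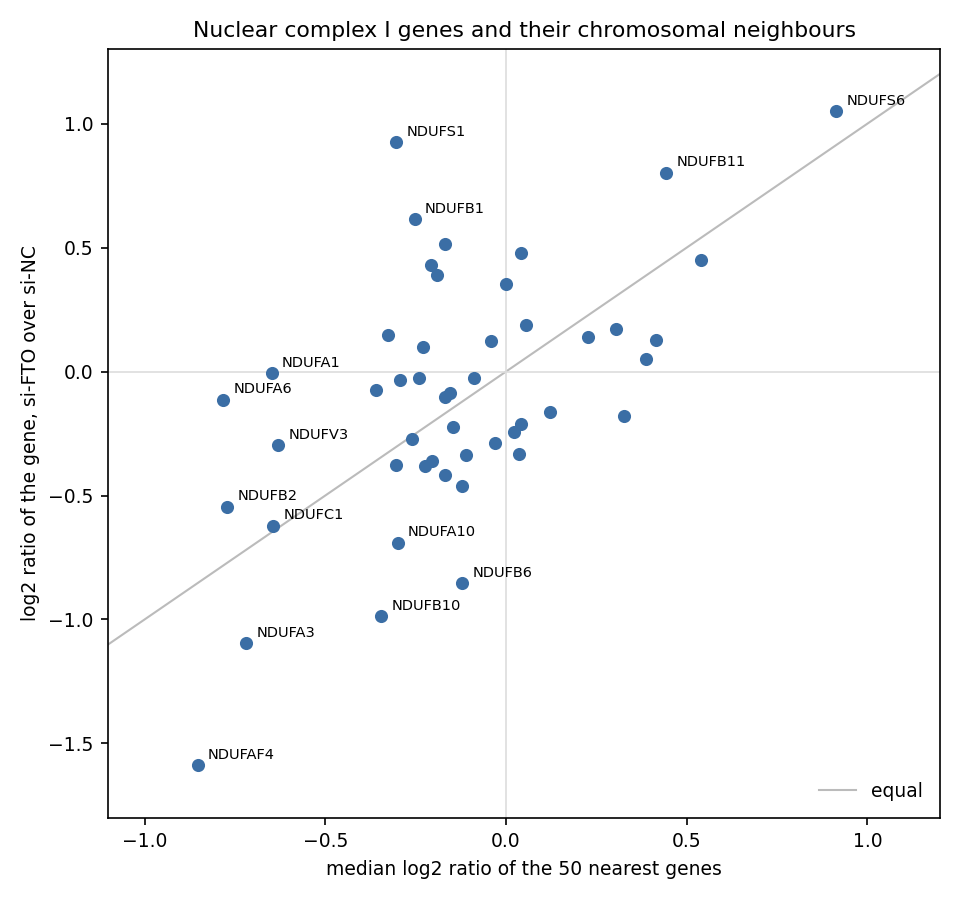
The log2 ratio of each of the 48 nuclear members against the median log2 ratio of its 50 nearest genes with at least 10 TPM, with a line of equality and names for members or neighbourhoods past 1.5-fold. NDUFS6 at 1.05 lies near the line of equality, NDUFAF4 at -1.59, NDUFB6 at -0.85 and NDUFS1 at 0.93 lie away from it, and directions near 0 flip after median-ratio scaling, under which 13 of the 55 members change sign.

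Overlapping genes limit some of these values, since reads in a shared stretch may be counted for either gene. NDUFC1 overlaps NAA15 at 44.9 and 19.8 TPM and MGARP at 22.0 and 0.0701 TPM, both lower in si-FTO like NDUFC1 itself. NDUFA3 overlaps TFPT on the opposite strand, at 24.7 and 9.28 TPM (log2 -1.32). NDUFB11 overlaps RBM10 on the opposite strand, at 84.0 and 75.7 TPM, which lay within 1.5-fold. NDUFS3 overlaps PTPMT1 on the same strand, at 77.4 and 172 TPM (log2 1.14), whereas NDUFS3 differed by 0.05. NDUFA13 overlaps YJEFN3 at 9.99 and 4.51 TPM and a readthrough gene at 31.9 and 25.8 TPM. The values of these members are uncertain to that extent.

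What the promoters share was looked up in RefSeq sequences of the GRCh38.p14 build, from 250 bases before to 50 bases after each start, which were found for 42 of the 48 nuclear members. They were searched on both strands for 4 words linked to factors that act on nuclear genes of respiration. GCATGCGC, the core of the NRF1 motif, occurred in 8 of the 42 members, or 19.05%, and in 4.89% of 15843 protein-coding genes (3.05% of all 35116 promoters). AAGATGGC, a YY1 word, also occurred in 8 members, in each of them from 10 to 26 bases after the start, and in 4.67% of protein-coding genes (2.89% of all promoters). CCGGAAG, an ETS word that GABPA binds, occurred in 7 members, or 16.7%, close to the 16.5% of protein-coding genes (10.3% of all promoters). TCAAGGTCA, bound by ESRRA, was found in 0 members and 0.334% of protein-coding genes (0.353% of all promoters). The NRF1 core overlaps its own reverse complement in NDUFB4, NDUFA8 and NDUFAF5. A match is a description of letters and not a binding site.

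The members with an NRF1 core were NDUFA5, NDUFA6, NDUFA8, NDUFB4, NDUFS6, NDUFS7, NDUFAF4 and NDUFAF5, and they included both the highest and the lowest log2 ratio of all members, with a median of -0.14. The stretches around the core are shown for the 4 members where they lie before the gene's own annotated exons. Each holds the core and 20 bases on each side. The word begins at similar positions from the start in NDUFA5 (-158), NDUFA6 (-166) and NDUFB4 (-159), and at -46 in NDUFS6. Capitals mark the word on either strand, and each sequence is written in the direction of its gene. The stretch of NDUFA5 is chr7:123557949-123557996 (minus strand), that of NDUFA6 is chr22:42090911-42090958 (minus strand), that of NDUFB4 is chr3:120596157-120596206 (plus strand) and that of NDUFS6 is chr5:1801341-1801388 (plus strand).
NDUFA5: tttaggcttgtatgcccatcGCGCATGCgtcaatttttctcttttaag
NDUFA6: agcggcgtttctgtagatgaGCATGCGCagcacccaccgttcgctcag
NDUFB4: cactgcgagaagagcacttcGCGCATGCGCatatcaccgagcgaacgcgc
NDUFS6: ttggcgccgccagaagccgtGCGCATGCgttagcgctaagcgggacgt
Of these 4 members, NDUFS6 alone was past 1.5-fold, at 1.05, and NDUFA5, NDUFA6 and NDUFB4 were at -0.07, -0.11 and -0.16 as deposited and on the other side of 0 after median-ratio scaling.

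The 250 bases before the start of NDUFAF4 are printed because this gene had the lowest ratio of all members and its stretch holds no annotated exon. It is chr6:96897892-96898141 on the minus strand, 67.2% of its bases are G or C, and capitals mark the ETS word. Its NRF1 core lies 7 bases after the start and outside the stretch.
NDUFAF4: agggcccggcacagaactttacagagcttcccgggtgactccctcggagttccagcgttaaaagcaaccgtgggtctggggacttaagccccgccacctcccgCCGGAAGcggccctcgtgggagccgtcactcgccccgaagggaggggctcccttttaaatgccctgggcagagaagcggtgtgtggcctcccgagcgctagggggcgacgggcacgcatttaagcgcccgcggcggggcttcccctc
The factors named by these words were themselves unequal. NRF1 was at 23.3 TPM in si-NC against 21.8 in si-FTO, YY1 at 83.3 and 65.1 TPM, GABPA at 16.5 and 9.97 TPM (log2 -0.67) and ESRRA, past 2-fold, at 38.3 and 83.4 TPM.

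The list of 12 regulators of respiration and of mitochondrial RNA, to which these factors belong, held 3 higher and 4 lower genes (18.8% and 31.2% of all genes compared) around a median of -0.40. After median-ratio scaling 3 were higher and 1 was lower around -0.19, and after quantile normalization 3 were higher and 2 lower. PPARGC1A, a coactivator of mitochondrial genes, was at 3.02 and 13.9 TPM (log2 1.89), and its relative PPARGC1B at 20.7 and 4.28 TPM (log2 -2.04). Of the factors that act on mitochondrial DNA, TFB2M, needed to start transcription, was at 19.5 and 37.8 TPM (log2 0.92), while the elongation factor TEFM was at 18.98 and 12.1 TPM (log2 -0.61). SLIRP, which stabilises mitochondrial messenger RNA and was the most abundant of the list, was at 224 and 131 TPM (log2 -0.77), and its partner LRPPRC at 103 and 105 TPM. These values stand beside the lower MT-ND levels, and their part in them was not tested.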

How the data were processed

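According to the study's methods, the authors used Bowtie for mapping to hg19 and RSEM for the levels, whereas the submitters' processing notes name HISAT2 and hg19; versions and annotation are not given in the sources used here. The deposited values are TPM, as 1 mean per group for 58174 genes, with 999970 and 999957 TPM in all. A value of 0.0001, listed for 26830 genes in si-NC and 29534 in si-FTO, was read as 0. The authors' fold changes, p-values and q-values were not used, nor was a second table with the genes they selected.

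Gene symbols came from a reference table that matched 55726 identifiers, and gene types and coordinates from GENCODE release 44 lifted to GRCh37. Members and lists were chosen with earlier results of these data known. Genes with at least 0.5 TPM in a group were compared by the log2 ratio with a pseudocount of 1. No test was possible on group means. Named genes are FTO, members past 1.5-fold, most core subunits, the highest and lowest level of each role, of other lists the members past 2-fold and the most abundant, and the cell type markers. Outside this rule, chosen with the values known, are the genes past 1.5-fold of other lists, CHCHD4, LRPPRC, NRF1, YY1, the mitochondrial rRNAs and tRNAs, the other NDUF and NDUFAF genes given in full, the overlapping genes and the copies. PECAM1 was not analysed here. Python 3.11.15, numpy 2.4.6, pandas 2.3.3 and matplotlib 3.10.9 were used, and the calculations were tested on simulated data. The alternatives were a pseudocount of 0.1, no minimum or one of 10 TPM, median-ratio scaling, quantile normalization, TPM rescaled without mitochondrially encoded genes, 0.0001 kept as the value without pseudocount or minimum, the 3 other NDUF genes as members, and 20 nearest genes.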

Additional observations from a re-analysis of the deposited data

How the results depend on the processing

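No paired analysis was possible because the table holds 1 mean per group, and for the same reason no replicate could be left out. A difference counted as moved when it differed by 0.1 or more or changed sign, and a count when it differed by over 1.5 times or reached 0. Of 77 alternative values of the summary results, 59 did not move and 18 did. Many of the 59 could not have moved. Changing the minimum TPM kept the same genes in every summary result it was applied to, and the pseudocount does not enter the sums. The 59 is therefore no measure of robustness. Median-ratio scaling, which raised the log2 ratio of every member by 0.07 to 0.21, gave a log2 ratio of -1.85 for FTO, medians of 0.13 for nuclear subunits, -0.0046 for NDUFAF factors, -0.33 for mitochondrially encoded subunits and 0.13 for complexes II to V, sums of 0.19 for nuclear and -0.052 for mitochondrially encoded subunits, and nuclear subunit counts of 8 higher and 3 lower by 1.5-fold and 3 higher and 0 lower by 2-fold. Quantile normalization gave -1.92 for FTO, -0.41 for the mitochondrially encoded median, and 0 subunits higher and 2 lower by 2-fold. FTO was at -2.17 with a pseudocount of 0.1 and at -2.19 with 0.0001 kept and no pseudocount. Rescaling without mitochondrially encoded genes gave 2 nuclear subunits lower by 2-fold.

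Single members kept their side of the 1.5-fold threshold in 47 of 55 cases under median-ratio scaling, 52 of 55 under quantile normalization, and 53 of 55 with a pseudocount of 0.1 or with 0.0001 kept, and no member past 1.5-fold changed sign in any setting. With the 20 nearest genes, r between members and neighbours was 0.52. Depth and the spread between libraries cannot be taken from the group means, so no difference here is set against an error, and the cause of the marker differences between the groups was not tested.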

Other observations

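Transcripts of the hypoxia response, in which NDUFA4L2 is known to be induced, did not share a direction. Of the 8 genes listed, 2 were higher and 3 lower by 1.5-fold, around a median of -0.27, and after median-ratio scaling 3 were higher and 2 lower around -0.06. Among all genes compared 18.8% were higher and 31.2% lower. NDRG1, the most abundant in si-NC, was at 158 TPM in si-NC against 27.0 in si-FTO (log2 -2.50), and EGLN3, an oxygen-sensing hydroxylase, at 15.6 and 6.09 TPM (log2 -1.23). CA9, a carbonic anhydrase, was at 0.0480 and 3.25 TPM. NDUFA4L2 itself was under 1 TPM in both groups.

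The lncRNA NDUFA6-DT, which starts next to NDUFA6 and runs away from it, was at 7.36 and 2.21 TPM (log2 -1.38), while NDUFA6 was at 93.1 and 86.0 TPM (log2 -0.11). The 50 genes around them had a median of -0.78, below the subunit and above the lncRNA. Among the mitochondrial tRNAs, MT-TF was at 106 and 43.2 TPM (log2 -1.28) and MT-TA at 1004 and 1506 TPM (log2 0.58), and the sum of the 22 tRNAs went from 13937 to 14887 TPM although their median was below 0.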
